A study of Drosophila melanogaster with 4 samples.

Results

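Lipid synthesis genes were followed in wing imaginal discs in which subunits of the CDK8 kinase module had been depleted. The group consists of 10 genes, picked by symbol from the 7451 genes listed in at least 1 of the 4 deposited tables. They are the transcription factor gene SREBP (FBgn0261283), its escort gene SCAP (FBgn0033052), the synthesis genes ATPCL (FBgn0020236), AcCoAS (FBgn0012034), ACC (FBgn0033246) and FASN1 (FBgn0283427), the desaturase gene Desat1 (FBgn0086687), the acyl-CoA synthetase gene bgm (FBgn0027348), the fatty acid binding protein gene fabp (FBgn0037913) and the lipid droplet gene Lsd-2 (FBgn0030608). Of these, 5 were listed in all 4 tables, 3 in 3 tables and 2 in 2 tables.

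SREBP is made as a precursor in the membrane of the endoplasmic reticulum. SCAP escorts it to the Golgi, where site-1 and site-2 proteases release the part that enters the nucleus and switches on genes of fatty acid synthesis. In flies, which do not make sterols, this circuit responds to phospholipid rather than to sterol. Cdk8, with its cyclin CycC, is known to phosphorylate nuclear SREBP and to promote its breakdown, in flies as in mammals. That regulation acts on the protein, whereas the data here are of RNA.

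Single cells came from pools of between 100 and 120 discs of third-instar Drosophila melanogaster larvae, with 1 library for each of 4 genotypes. All genotypes carried 1 copy of ap-Gal4 driving GFP. The control was ap-Gal4>GFP/+, and the others also carried UAS-Cdk8i-cycCi/+, UAS-Med12i/+ or UAS-Cdk8i-cycCi-Med12i/+, which deplete Cdk8 and CycC, Med12, or all 3. The ap-Gal4 driver acts in the dorsal compartment, so GFP marks cells expected to carry the depletion, and ventral cells of the same discs still have the module. Each deposited table is the authors' own comparison, within 1 library, of cells in which GFP was found (GFP+, taken as dorsal) and cells in which it was not (GFP-). The series asked how module subunits affect proliferation and tissue size.

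The authors' deposited tables gave a fold, converted here to log2 and positive where GFP+ cells had the higher mean, and the share of each cell set in which the gene was detected. The conversion takes the deposited fold as a natural log, which its column name implies but no source used here states. With another base every log2 fold and difference here would scale by one common factor. A gene was called on size, where its fold reached 1.3 and at least 10% of the cells of a set contained it. Each genotype has a single library, so genotypes could not be tested against each other, no value has a replicate error, and the number of cells is unknown. Genes without a listed value had an authors' p-value of 0.01 or more, or were not tested, and are given no value.

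The pouch marker nub had a share of 100% in GFP+ and in GFP- cells of all 4 libraries. The authors' labels for these comparisons include nubP, which may mean that cells were chosen for nub beforehand. Such a choice would fix this share at 100%, so the share cannot show that these are wing pouch cells. The log2 fold of nub was below 0 in GFP+ cells of all 4 libraries, from -0.52 under the combined depletion to -0.33 under Cdk8-CycC. The other pouch markers were mixed. Bx was above 0 throughout, at 0.54 in the control, 0.47 under Cdk8-CycC, 0.37 under Med12 and 0.52 under the combined depletion. The vg values were -0.03, -0.08, 0.18 and 0.22 in the same order. In the control and Cdk8-CycC libraries rn lay at -0.26 and -0.25 and Dll at 0.01 and 0.07, and neither was listed elsewhere. Detection of the dorsal gene ap lay between 62.6% and 68.1% in GFP+ and between 5.3% and 7.2% in GFP- cells. CycC was found in fewer GFP+ than GFP- cells where it was targeted, in 18.9% against 32.2% of cells under Cdk8-CycC and in 32.8% against 48.0% under the combined depletion. The same held for the Med12 gene kto, in 32% against 38.9% under Med12 and in 35.0% against 45.4% under the combined depletion. Of 9 fat body markers only Lsp1gamma was listed, with detection in 3.2% of GFP+ control cells and between 9.8% and 12.9% in the depletions. Its log2 fold lay between -0.038 and 0.015 in all 4 libraries, and its part in the lipid gene values was not tested. Hemocyte markers were unlisted except Ppn in the Med12-targeted libraries. Of 4 markers of the peripodial layer, the thin sheet that covers the disc, all were listed, and Ubx was far higher in GFP+ cells, with log2 folds of 4.62 in the control, 3.86 under Cdk8-CycC, 4.58 under Med12 and 4.51 under the combined depletion. Its shares were 96% against 39.7%, 93.5% against 24.8%, 89.4% against 35.1% and 88.1% against 18.6% in the same order, while odd, upd1 and bowl lay between -0.02 and 0.09 in log2 fold. The GFP transgene itself had log2 folds of 4.90, 3.95, 4.45 and 4.28 in that order. Whether the Ubx values come from peripodial cells or are tied to the GFP reporter was not tested. Summed over the 4 peripodial markers, detection came to between 197.3 and 203.6 percentage points in GFP+ and between 111 and 130.3 in GFP- cells. Most of the gap in this sum was that of Ubx. In the control the shares of the others were 93.2% against 85.9% for bowl, 5.4% against 0.4% for upd1 and 3.9% against 2.2% for odd. Markers of myoblasts (1 or 2 of 6 listed), trachea (2 or 3 of 5) and neurons (1 or 2 of 4) were found as well, none past the size rule. Among them the myoblast gene Mef2 was in 50% of GFP+ and 33.9% of GFP- cells under Cdk8-CycC, and the neuronal gene elav had log2 folds of -0.06, 0.03, 0.07 and 0.13 in the order of libraries above. The part of these other cell types in the lipid gene values was not tested. Over the 4300 genes listed in every table, the median gene was detected in 32.5% of GFP+ and 22.4% of GFP- control cells. These medians were 39.3% and 24.5% under Cdk8-CycC, 50.4% and 36.7% under Med12 and 50.7% and 35.0% under the combined depletion. Between 98.5% and 99.4% of listed genes had the larger share in GFP+ cells, so a higher share in GFP+ cells is the common state and is read below against the median gene.

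The lipid genes were led by 3 members. FASN1 and fabp had a higher mean in GFP+ cells of every library and more so in the depletions than in the control. Lsd-2 had a lower mean in GFP+ cells of all 3 depletion libraries. By size, fabp was called higher and Lsd-2 lower under Med12 and under the combined depletion. All of these calls were lost where the deposited fold was read as log2, or at 1.5-fold. That is 1 of 7 listed members in each direction under Med12, where 0.808% of all listed genes were called higher and 0.341% lower, and 1 of 10 in each direction under the combined depletion, where these backgrounds were 0.423% and 0.408%. No listed member was called in the control (0 of 6, background 0.362%) or under Cdk8-CycC depletion (0 of 10, background 0.515%). The median log2 fold of the listed members was 0.0050 in the control, 0.039 under Cdk8-CycC, 0.035 under Med12 and 0.061 under the combined depletion, against 0.0043, 0.021, 0.017 and 0.019 for all listed genes.

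**Figure D1:**
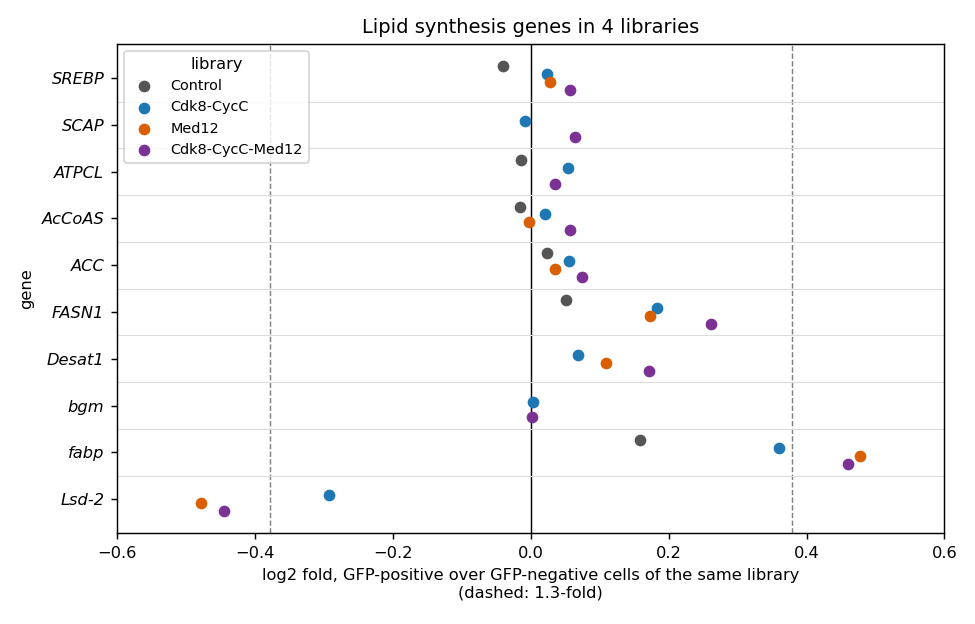
Log2 fold between GFP+ and GFP- cells (horizontal axis) for each lipid gene (vertical axis) in the 4 libraries, 1 point per library in which the gene was listed, with dashed lines at 1.3-fold. The points of fabp lie to the right and those of Lsd-2 to the left of the rest, and both pass the dashed lines in the Med12 and Cdk8-CycC-Med12 libraries.

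SREBP itself differed little between the cell sets. Its deposited fold corresponded to a log2 of -0.040 in the control, 0.024 under Cdk8-CycC, 0.028 under Med12 and 0.057 under the combined depletion. The control library was thus the only one with the higher mean in GFP- cells. In the authors' deposited tables SREBP was detected in 45.3% of GFP+ and 32.9% of GFP- control cells. The pairs of shares were 47.5% and 30.8% under Cdk8-CycC, 57.6% and 43.1% under Med12, and 64.9% and 49.2% under the combined depletion. Those gaps were ordinary for their libraries. The log2 odds ratio of detection, the odds in GFP+ over those in GFP- cells, lay within 0.02 of the median gene in every library, at -0.012 to 0.018 from it.

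Relative to control the log2 fold of SREBP differed by 0.064 under Cdk8-CycC, 0.068 under Med12 and 0.097 under the combined depletion. These values sat at percentiles 80.8, 85.5 and 92.3 of all genes compared. By detection odds, the same differences lay at percentiles 54.5, 50.9 and 49.7, so the shift seen in the mean had no counterpart in the share of cells. The 3 genes whose 4 log2 folds and 8 detection shares were closest to those of SREBP, among 4300 genes listed in every table, were CG6512, red and EMC1. Their standardised distances were 0.26, 0.30 and 0.32, where the median gene lay at 1.93. Each had a log2 fold below 0 in the control and above 0 in the 3 depletions, which the choice by these same folds favours.

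SCAP, the escort of SREBP, was listed in the Cdk8-CycC and combined tables only. Its log2 fold was -0.0080 under Cdk8-CycC and 0.064 under the combined depletion, with a direct difference of 0.072 between these libraries (percentile 94.5). The deposited shares were 59.9% of GFP+ and 45.1% of GFP- cells under Cdk8-CycC, and 72.5% and 56.4% under the combined depletion. The genes that release and carry SREBP were all measured, and 5, 4 and 4 of 6 lay above control under Cdk8-CycC, Med12 and the combined depletion, with medians of 0.023, 0.045 and 0.028. Of all genes compared, 74.6%, 69.2% and 71.0% lay above control, with medians of 0.024, 0.019 and 0.020. Among the 6 genes the COPII coat gene Sec24CD was the highest each time, at 0.17, 0.14 and 0.14. S2P, the site-2 protease gene, was the lowest under both single depletions, at -0.025 and -0.026.

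The genes that supply acetyl-CoA showed small differences. ATPCL encodes ATP citrate lyase, which makes acetyl-CoA from citrate, and its log2 fold was -0.013 in the control, 0.054 under Cdk8-CycC and 0.035 under the combined depletion, with no listing under Med12. Detection of ATPCL was 52.4% against 39.5%, 56.9% against 39.7% and 71.2% against 56.2% of GFP+ and GFP- cells in these deposited tables. Like SREBP, ATPCL had detection odds at the median gene in each of them, within 0.002 on the log2 scale.

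AcCoAS, which encodes the enzyme that makes acetyl-CoA from acetate, was found in few cells. The authors' deposited tables list it in 5.5% of GFP+ and 3.4% of GFP- control cells, in 9.0% and 3.3% under Cdk8-CycC, in 11.3% and 5.3% under Med12 and in 18.8% and 5.8% under the combined depletion. Its share in GFP+ cells was highest in the combined depletion, while the share in GFP- cells stayed between 3.3% and 5.8%. The log2 fold was -0.015, 0.020, -0.0029 and 0.057 in the same order of libraries. Detection odds relative to the median gene were -0.027 in the control and 0.53, 0.35 and 0.97 in the depletions. The odds difference from control reached percentiles 97.9, 94.8 and 98.9, whereas the difference of folds reached 60.7, 43.2 and 85.6, so the measures disagree on how far AcCoAS stood from other genes. The fold is taken to hold a pseudocount of 1, which compresses genes of low mean, and its part in this disagreement was not tested.

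ACC encodes acetyl-CoA carboxylase, which commits acetyl-CoA to fatty acid synthesis. Its deposited shares in GFP+ and GFP- cells were 24.5% and 16.0% in the control, 28.5% and 14.6% under Cdk8-CycC, 34.6% and 23.2% under Med12, and 44.9% and 24.9% under the combined depletion. The log2 fold was 0.023, 0.056, 0.035 and 0.075. ACC was thus above 0 in all 4 libraries. The difference from control was 0.032, 0.012 and 0.052, at percentiles 58.1, 42.7 and 76.0 of all genes. By detection odds ACC lay at percentiles 84.6 under Cdk8-CycC, 40.4 under Med12 and 92.2 under the combined depletion, with Med12 depletion lowest on both measures.

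FASN1, the fatty acid synthase gene, had the clearest profile among the synthesis enzymes. In the authors' deposited tables it was detected in 34.2% of GFP+ and 20.7% of GFP- control cells. The shares were 39.8% and 15.9% under Cdk8-CycC, 44.7% and 19.7% under Med12 and 58.9% and 27.5% under the combined depletion. The gap between the cell sets was 13.5 percentage points in the control and 23.9, 25 and 31.4 points in the depletions. The log2 fold was 0.051 in the control (percentile 88.1 of all listed genes), 0.18 under Cdk8-CycC (97.2), 0.17 under Med12 (96.4) and 0.26 under the combined depletion (98.7). Its difference from control was 0.13, 0.12 and 0.21, a ratio of folds of 1.10, 1.09 and 1.16, short of the 1.3-fold rule each time. By detection odds these differences reached percentiles 97.9, 98.3 and 97.9, so FASN1 stood high on both measures.

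**Figure D2:**
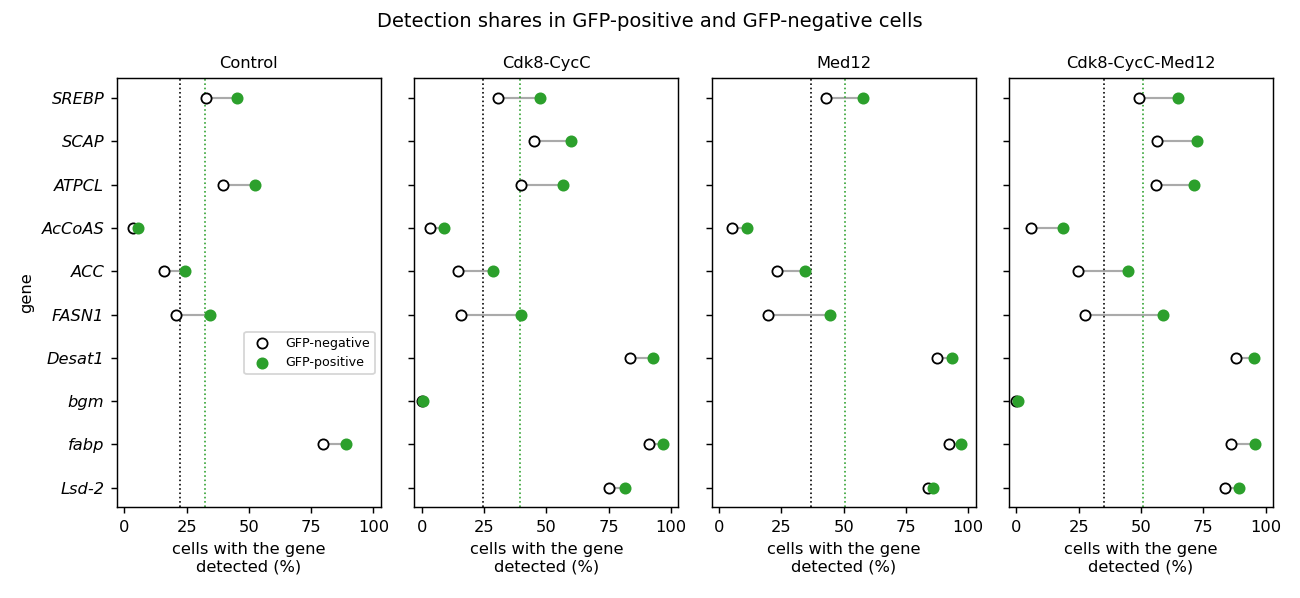
Share of cells in which each lipid gene was detected (horizontal axis, %) in GFP+ cells (filled) and GFP- cells (open), 1 panel per library, with dotted lines at the median of the 4300 genes listed in every table. The widest gap in each panel belongs to FASN1, from 13.5 percentage points in the control to 31.4 under the combined depletion.

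Which cell set the wider gap of FASN1 came from depended on the scale. In percentage points, its share differed from the control library by 5.6 in GFP+ and -4.8 in GFP- cells under Cdk8-CycC. The same differences were 10.5 and -1 under Med12, and 24.7 and 6.8 under the combined depletion. Because libraries differ in how many genes are found per cell, each share was ranked among the 4300 genes listed in every table. In GFP- cells FASN1 ranked at percentile 46.0 in the control, 28.7 under Cdk8-CycC, 18.6 under Med12 and 36 under the combined depletion. In GFP+ cells it ranked at percentile 53.5 in the control and 50.9, 41.3 and 61.6 in the depletions. By rank, then, the GFP- cells were further from the control than the GFP+ cells in each depletion. Only the combined depletion placed FASN1 above its control rank in GFP+ cells, while all 3 placed it below its control rank in GFP- cells. ACC was lower than in the control in GFP- cells too, at percentile 33.6 in the control and 25, 25.4 and 30.4 in the depletions, and in GFP+ cells exceeded its control rank of 34.4 under the combined depletion alone (40.7). For SREBP both cell sets moved together, from 70.8 and 70.2 in the control to 62.0 and 61.1 under Cdk8-CycC, 60.0 and 59.7 under Med12 and 70.4 and 70.6 under the combined depletion. Each rank comes from 1 library, and whether the ventral cells of these libraries differ for other reasons was not tested.

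**Figure D3:**
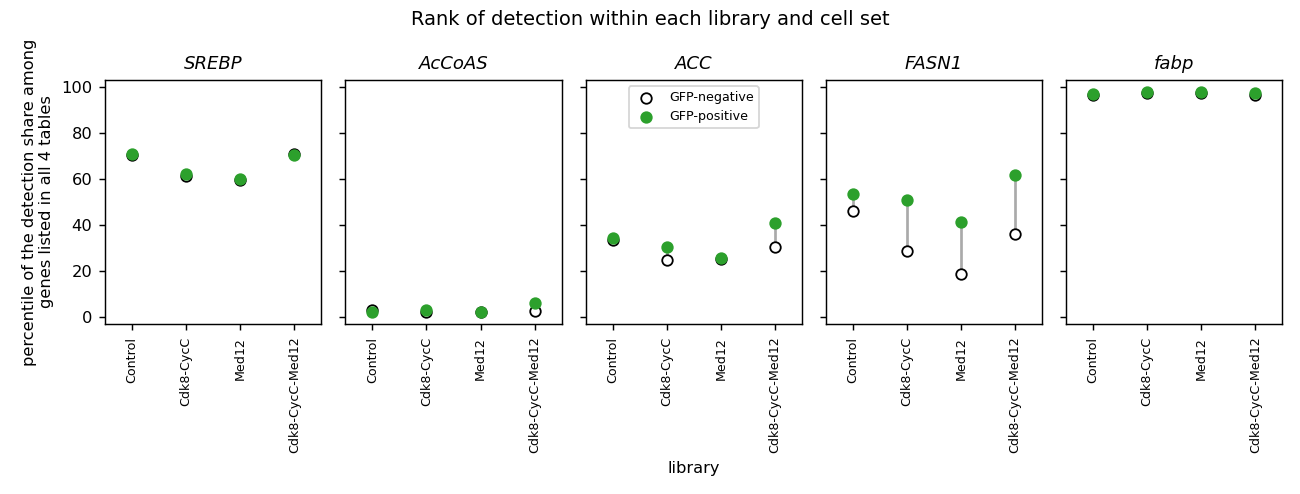
Percentile of the detection share among 4300 genes (vertical axis) in GFP+ cells (filled) and GFP- cells (open) for the 5 lipid genes listed in every table, with the 4 libraries on the horizontal axis. The open points of FASN1 lie between 46.0 in the control and 18.6 under Med12 depletion, while both sets of SREBP stay together.

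Among the genes closest to FASN1 by the same standardised distance were CG10877 and mthl10, at 1.09 and 1.13, where the median gene lay at 3.12. These genes lay farther from FASN1 than the closest genes did from SREBP, and so did the median gene, at 3.12 against 1.93.

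Desat1 encodes the desaturase that introduces a double bond into newly made fatty acids. It was listed in the 3 depletion tables, with log2 folds of 0.069 under Cdk8-CycC, 0.11 under Med12 and 0.17 under the combined depletion, at percentiles 81.0, 92.6 and 96.8. The deposited shares were 92.7% of GFP+ and 83.6% of GFP- cells under Cdk8-CycC, 93.3% and 87.4% under Med12, and 95.4% and 88.3% under the combined depletion. Desat1 was not listed for the control and has no difference from it. The combined depletion exceeded Cdk8-CycC depletion by 0.10 and Med12 depletion by 0.063.

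The bgm gene encodes a very long chain acyl-CoA synthetase and was close to undetected. Its deposited shares were 0.5% of GFP+ and 0.0% of GFP- cells under Cdk8-CycC, and 0.7% and 0.0% under the combined depletion. The log2 folds were 0.0027 and 0.0023. With unknown cell numbers, such shares give no usable comparison.

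The fabp gene encodes a cytoplasmic protein that carries fatty acids. Its log2 fold was 0.16 in the control, 0.36 under Cdk8-CycC, 0.48 under Med12 and 0.46 under the combined depletion, that is 1.12, 1.28, 1.39 and 1.38 times the mean of GFP- cells. These folds ranked 80, 34, 23 and 20 from the top of the listed genes. In the authors' deposited tables fabp was detected in 89.1% of GFP+ and 79.6% of GFP- control cells, 96.7% and 91.4% under Cdk8-CycC, 97.2% and 92.3% under Med12 and 95.6% and 86.1% under the combined depletion. GFP+ cells of the control had the higher mean before any depletion, and the difference of fabp from that library was 0.20, 0.32 and 0.30. These are ratios of folds of 1.15, 1.25 and 1.23, all under the 1.3-fold rule, at percentiles 98.9, 99.5 and 99.6 of all genes. The detection odds of fabp placed the differences at percentiles 77.8, 94.9 and 96.6.

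Lsd-2 encodes a perilipin, a coat protein of lipid droplets that is known to be expressed in the wing disc and to control lipid storage there. Its mean was lower in GFP+ cells, with a log2 fold of -0.29 under Cdk8-CycC, -0.48 under Med12 and -0.44 under the combined depletion. Those values ranked 25, 8 and 20 from the bottom of the listed genes. The deposited shares went the other way, at 81.7% of GFP+ and 75.0% of GFP- cells under Cdk8-CycC, 86.0% and 83.8% under Med12 and 89.2% and 83.6% under the combined depletion. Relative to the median gene, however, the detection odds of Lsd-2 were low in all 3, by -0.43, -0.59 and -0.25 on the log2 scale, at percentiles 2.78, 1.76 and 8.22. Lsd-2 was not listed for the control, so whether the dorsal cells of an undepleted disc have less of its RNA cannot be told from these values. Its lower mean was not accompanied by a smaller share of GFP+ cells with detected RNA in any of the 3 tables.

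The differences from control were then read over the lipid genes as a group. Of the 6 members compared under Cdk8-CycC, the 5 under Med12 and the 6 under the combined depletion, all lay above 0, where 74.6%, 69.2% and 71.0% of all genes compared did so. The median over the members was 0.066, 0.068 and 0.085, against 0.024, 0.019 and 0.020 over all genes. None of these members was called by size in any of the 3 comparisons, with backgrounds of 0.113%, 0.372% and 0.402%. Lsd-2, lower in GFP+ cells of all 3 depletion libraries, was not listed for the control and does not enter these counts. With unlisted genes set to 0, 8 of 10, 7 of 8 and 9 of 10 members lay above 0. Lsd-2 was then called lower under Med12 and the combined depletion, with backgrounds of 0.46% and 0.476%. With folds centred on all genes, 3 of 5 lay above 0 under Med12. All 3 comparisons use the same control library, in which SREBP, ATPCL and AcCoAS lay below 0, and they are not independent of each other. Only fabp under each depletion and FASN1 under the combined depletion lay beyond the central 95% of all genes, which ran from -0.066 to 0.15, from -0.076 to 0.15 and from -0.078 to 0.16.

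**Figure D4:**
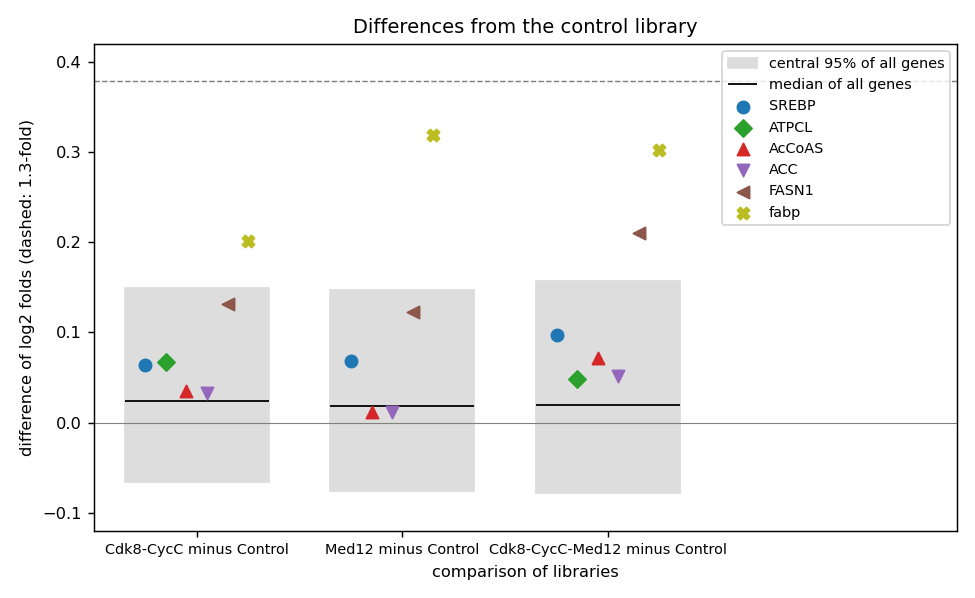
Difference of log2 folds between each depletion library and the control library (vertical axis) for the lipid genes listed in both tables, with the 3 comparisons on the horizontal axis, grey bands for the central 95% of all genes, a black line for their median and a dashed line at 1.3-fold. All points lie above 0 and below the dashed line, and fabp lies above the grey band in each comparison.

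The depletions were also compared directly, without the control. Med12 depletion did not stand above Cdk8-CycC depletion, where 3 of 7 members lay above 0 (median -0.0096) and 44.8% of all genes did so. The members went apart there, with fabp at 0.12 (percentile 97.1) and Lsd-2 at -0.19 (percentile 1.15). The combined depletion was above Cdk8-CycC depletion in 7 of 10 members (median 0.035, 45.6% of all genes above 0) and above Med12 depletion in 6 of 7 (median 0.040, 52.7%). FASN1 was higher in the combined depletion by 0.078 and 0.088, at percentiles 95 and 96.5. No member was called in these comparisons, with backgrounds of 0.402%, 0.37% and 0.0578%. Each library enters 2 of these 3 comparisons.

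For the 5 members measured throughout, the combined depletion was set beside the sum of the single differences from control. FASN1 reached 0.21 against a sum of 0.25, fabp 0.30 against 0.52 and SREBP 0.097 against 0.13. AcCoAS and ACC went slightly past their sums, at 0.072 against 0.048 and 0.052 against 0.044. The shortfall was thus greatest for fabp, at -0.22. The sums subtract the control library 2 times, so its own deviations weigh more in them.

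Other lipid genes were examined as 11 lists holding 86 listed genes beside the 10 members. None was called by size in any library or comparison. Relative to control, 58 of 69 lay above 0 under Cdk8-CycC, 57 of 64 under Med12 and 56 of 66 under the combined depletion, with medians of 0.033, 0.048 and 0.043. Over all genes compared, 74.6%, 69.2% and 71.0% lay above 0, with medians of 0.024, 0.019 and 0.020, and the counts of the single lists are to be read against these shares.

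Most genes of fatty acid breakdown also had folds above those of the control library, none of them called. Of 12 measured beta-oxidation genes, 11, 12 and 12 lay above control under Cdk8-CycC, Med12 and the combined depletion, with medians of 0.058, 0.087 and 0.11. The thiolase gene yip2 was highest under Med12 (0.18), Mtpbeta under Cdk8-CycC (0.12) and Mtpalpha under the combined depletion (0.22), the last 2 encoding the subunits of the mitochondrial trifunctional protein. The lowest were whd, which encodes the carnitine palmitoyltransferase of the outer membrane, at -0.0024 under Cdk8-CycC, and the peroxisomal oxidase gene Acox57D-p, at 0.0063 and 0.019 in the other depletions. Within the control library 6 of these 12 genes lay above 0, and 14 of 14 did so in each depletion library. Of all listed genes 55.8% lay above 0 in the control, and the depletion libraries had from 73.9% to 77.6%.

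Supply of acetyl-CoA and NADPH was above control, though by no called difference, in every measured gene, 5 of 5 under Cdk8-CycC, 4 of 4 under Med12 and 5 of 5 under the combined depletion, with medians of 0.070, 0.072 and 0.11. The citrate synthase gene kdn (0.087), the malic enzyme gene Men (0.10) and Pgd (0.12), of the pentose phosphate pathway, were the highest in turn. Men-b (0.038) was the lowest under Med12, and Zw, which encodes glucose-6-phosphate dehydrogenase, was the lowest in the other 2 comparisons, at 0.020 in both.

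Genes of glycerolipid and phospholipid synthesis lay above control in 7 of 9, 8 of 8 and 8 of 8 measured members, with medians of 0.055, 0.037 and 0.068. Their highest genes were Gpat4 (0.088), an acyltransferase gene of the first step, Pect (0.073), of phosphatidylethanolamine synthesis, and bbc (0.16), a phosphotransferase gene. The lowest were Pss (-0.016), Pcyt1 (0.010) and Pis (0.0090). The acyl-CoA synthetase list had 3 of 4 members above control each time, with medians of 0.041, 0.059 and 0.066. There pdgy was the highest (0.093, 0.11 and 0.12) and Fatp2, of fatty acid uptake, the lowest (-0.11, -0.080 and -0.013). Elongation and desaturation genes showed 7, 7 and 5 of 8 above control, with medians of 0.028, 0.032 and 0.014, and Sc2 was the lowest each time (-0.055, -0.012 and -0.048). The highest of that list were CG31523 (0.090), ifc (0.099) and CG5326 (0.073). Droplet and lipolysis genes other than Lsd-2 had at most 2 measured members, and Seipin, which encodes a protein of droplet formation, lay at 0.015, 0.0059 and 0.011, while the lipase gene Hsl lay at -0.0092 and -0.015 under the single depletions.

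**Figure D5:**
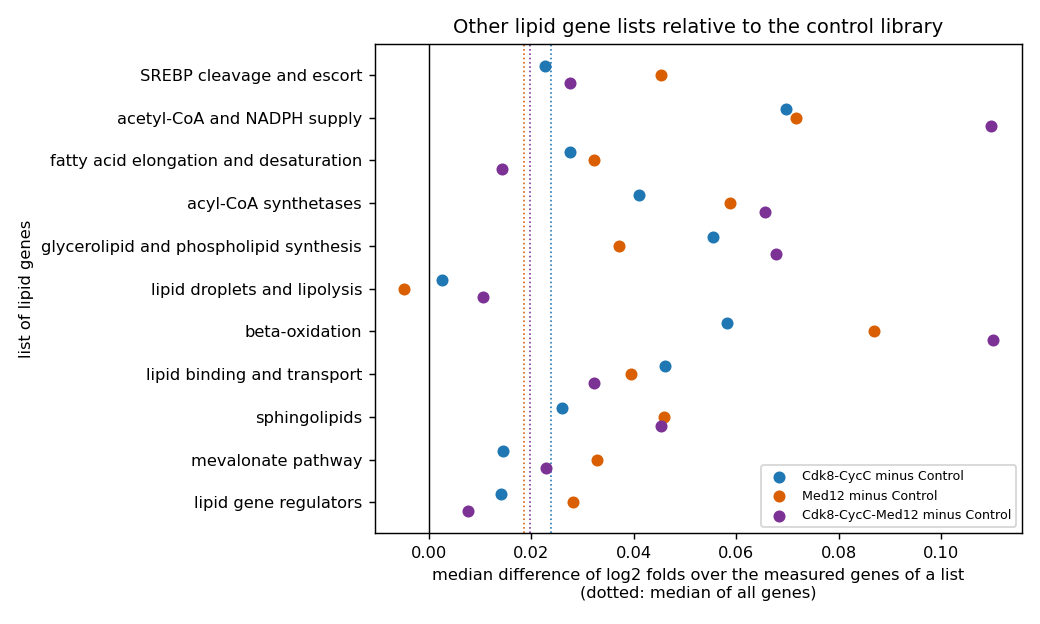
Median difference of log2 folds from the control library (horizontal axis) over the measured genes of each of 11 other lipid gene lists (vertical axis) in the 3 depletions, with dotted lines at the medians of all genes. The acetyl-CoA and NADPH supply and beta-oxidation lists lie farthest right, at 0.11 under the combined depletion.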

How the data were processed

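Droplet-based single-cell RNA sequencing of 4 libraries was processed by the authors, per the submitters' processing notes, with Cell Ranger 3.0.2 and Seurat. The genome build, release of Seurat, cell filters and doublet treatment were not given in the sources used here. For this reason coordinates are left out. The deposited fold, taken as a natural log with a pseudocount of 1, has no sign, and the higher cell set is named beside it. The deposited detection values are fractions of cells, the first for the named set. That order was read from the ventral gene if and from rows with folds near 0. The deposited p-values, computed over cells of 1 library, were not used. Depth is unknown, so no interval was computed.

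Folds were converted to log2, and differences are 1 library's log2 fold minus another's, over genes listed in both. For odds, shares were held between 0.001 and 0.999. Calls were by size alone, across all genes listed. The reading and calling steps were tested on simulated data. Python 3.11.15 and pandas 2.3.3 were used. All 10 lipid genes are named. Genes of the other lists are named where they passed the size rule or had the highest or lowest difference of their list. For SREBP and FASN1, the 3 nearest genes by Euclidean distance over standardised folds and logit shares were found, and 1 of them is not reported here. Of 123 list entries, 12 matched no reference symbol. Members and lists were chosen with earlier results of these data known. Promoter and protein sequences were not used here. Alternatives covered the measure, centring, log base, unlisted genes, thresholds and the signed column.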

Additional observations from a re-analysis of the deposited data

Results flagged for a closer look

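In 4 lipid genes the fold pointed in opposite directions in a pair of libraries, each with 1 sample. These differences were not tested. SREBP was lower in GFP+ cells of the control and higher in the depletions, by 0.06438 under Cdk8-CycC, 0.06783 under Med12 and 0.09731 under the combined depletion on the log2 scale. ATPCL did the same under Cdk8-CycC (0.06708) and the combined depletion (0.04883). AcCoAS lay below 0 in the control and Med12 libraries and above 0 in the others. Its differences from control were 0.03553 under Cdk8-CycC and 0.07183 under the combined depletion. Med12 depletion differed from Cdk8-CycC depletion by -0.02341, and the combined depletion from Med12 depletion by 0.0597. SCAP lay below 0 under Cdk8-CycC and above 0 under the combined depletion, which differed by 0.07237. Each of the 4 genes had the larger detection share in GFP+ cells of every library that listed it, as did between 98.5% and 99.4% of all listed genes. Relative to the median gene, the log2 detection odds of SCAP were -0.14 under Cdk8-CycC and 0.082 under the combined depletion. Those of AcCoAS were -0.027 in the control and 0.53, 0.35 and 0.97 in the depletions. SREBP stayed between -0.012 and 0.018, and ATPCL between -0.0019 and 0.0014.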

How the results depend on the processing

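No lipid gene listed in both libraries was called in any difference from control by mean expression at 1.3-fold. This depended on the measure and on how unlisted genes were treated. By the log2 ratio of detection shares, 1, 2 and 1 members were called under Cdk8-CycC, Med12 and the combined depletion, where 5.14%, 2.91% and 2.96% of all genes were. By the log2 odds ratio 3, 3 and 4 were called (24.4%, 9.99% and 18.6% of all genes), and after centring these odds on the median of all genes 1, 3 and 3 (8.18%, 8.09% and 10.3%). At 1.2-fold, 1 member (fabp) was called under Med12 and 1 under the combined depletion (0.984% and 0.824% of all genes). With unlisted genes set to 0, 1 member (Lsd-2, lower) was called under Med12 and 1 under the combined depletion (0.46% and 0.476% of all genes). In the direct comparisons the share ratio called 1 member for Med12 minus Cdk8-CycC and 1 for combined minus Med12 (9.28% and 2.87% of all genes), and the odds ratio 1 and 4 (17.1% and 11.4%). Centred odds called 2 for combined minus Cdk8-CycC and 2 for combined minus Med12 (12% and 8.21%).

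Within libraries the share ratio called 4, 5, 4 and 4 members in the control, Cdk8-CycC, Med12 and combined tables, and the odds ratio 5, 8, 6 and 9, all higher in GFP+ cells, against 51.5% to 66% and 88.3% to 92.6% of all genes. Centred odds called 3 under Cdk8-CycC, 2 higher and 1 lower (9.07% of all genes), and 4, all higher, under the combined depletion (10.3%). At 1.2-fold 2 were called under Cdk8-CycC, 1 higher and 1 lower (1.44% of all genes). With the fold read as log2, or at 1.5-fold, 0 were called under Med12 and 0 under the combined depletion. Of all genes, 0.413% and 0.329% were called there as log2, and 0.359% and 0.235% at 1.5-fold. Lsd-2 changed direction where detection was not centred, to 0.123, 0.0374 and 0.0935 by share ratio and 0.574, 0.248 and 0.696 by odds ratio in the Cdk8-CycC, Med12 and combined tables. Over the 74 member values, 27 had the other direction by share ratio, 14 by odds ratio, 17 by centred odds and 6 with folds centred on all genes.

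Counts of members above 0 moved as well. In the control they were 6 by share ratio, 6 by odds ratio and 5 by centred odds, against 3 by mean. Of all listed control genes, 99.3% had the larger share in GFP+ cells and 55.8% lay above 0 by mean. The control counts by share and by uncentred odds are therefore the common state. For the other counts of this paragraph no share over all genes is given. Relative to control, 2 lay above 0 by share ratio under Med12 and 3 under the combined depletion, and 3 under Med12 with folds centred on all genes. For Med12 minus Cdk8-CycC the counts were 0 by share ratio and 1 by odds ratio, where the median odds difference of all genes was itself -0.16. For combined minus Cdk8-CycC the count was 3 by share ratio. The signed column, blank for Desat1, SREBP and FASN1 in the combined table, left 4 above 0 for combined minus Cdk8-CycC and 3 for combined minus Med12, from fewer genes. The remaining 127 counts stayed within 1.5 times their main value. Where no such construction is named, the cause was not tested. No paired analysis was possible because each genotype has 1 library, and no replicate could be left out. Unknown depth limits AcCoAS and bgm most, as few cells showed them.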

Other observations

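Cholesterol and lipid transport, sphingolipid, mevalonate and regulator genes completed the lipid lists, and none was called by size. Of 5 measured lipid binding and transport genes, 4, 5 and 4 lay above control under Cdk8-CycC, Med12 and the combined depletion, with medians of 0.046, 0.039 and 0.032. Npc2a, which encodes a sterol-binding protein of the lysosome, was the highest each time, at 0.19, 0.12 and 0.17. It was detected in 20.2% of GFP+ and 15.0% of GFP- cells in the authors' deposited control table, and in 44.1% and 20.7% under Cdk8-CycC. The lowest genes were the lipoprotein receptor gene LpR2 (-0.020 under Cdk8-CycC, -0.012 under the combined depletion) and Npc1a (0.018 under Med12).

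Sphingolipid genes lay above control in 6 of 6, 4 of 5 and 6 of 6 measured members, with medians of 0.026, 0.046 and 0.045. Spt-I, of the enzyme that starts sphingolipid synthesis, was highest under the combined depletion (0.096) as under Cdk8-CycC (0.14), while under Med12 it was the ceramidase gene CDase (0.11). The lowest were nSMase (0.0021) and lace (-0.010 and 0.020). In the mevalonate pathway, which in flies makes isoprenoids but no sterol, 5 of 6, 4 of 5 and 5 of 6 lay above control, with medians of 0.014, 0.033 and 0.023. Hmgs was highest at 0.050 and Fpps at 0.052 and 0.075, with qm lowest at -0.0080, -0.014 and -0.022. Regulators of lipid genes were mixed, with 4 of 6, 5 of 5 and 3 of 5 above control and medians of 0.014, 0.028 and 0.0076. Mondo (0.032) and Hnf4 (0.088 and 0.070) were highest, and foxo (-0.052), Hr96 (0.0024) and bigmax (-0.027) lowest.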
